A study of Bos taurus
Mus musculus with 10 samples.

Results

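Integrins, laminins and the other structural genes of the basement membrane were followed in bovine embryonic stem cells that were kept with or without IWR-1 for 1 day. Members were all bovine gene symbols of the form ITGA or ITGB with a number or letter suffix, LAMA, LAMB or LAMC with a number, and NID1, NID2, HSPG2, AGRN, BCAM and DAG1. The table of 27590 bovine genes held 42 of them, namely 17 integrin alpha chains, 8 integrin beta chains, 11 laminin chains and 6 others. IWR-1 inhibits tankyrase and so dampens Wnt/beta-catenin signalling. The stem cell lines 1, 2, 4, 8 and 11, all wild type, came from blastocysts of day 7.5, and each was divided over 2 wells on a layer of mouse fetal fibroblasts arrested with mitomycin C. One well of a line kept complete medium with 2.5 µM IWR-1 (the IWR group, n = 5) and the other received the same medium lacking IWR-1 (the IWRR group, n = 5). RNA of the whole well, stem cells and feeders together, was sequenced, and 48064953 to 64345738 reads per library fell on bovine genes.

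A basement membrane is a thin sheet of extracellular matrix on which epithelia and the early embryonic epiblast rest. Its laminins are trimers of 1 alpha, 1 beta and 1 gamma chain, which assemble into a network that nidogens and the heparan sulphate proteoglycans perlecan and agrin link to type IV collagen. Cells hold on to it through integrins, each a pair of an alpha and a beta chain, and through other receptors such as dystroglycan and the Lutheran glycoprotein BCAM. In pluripotent stem cells, laminin and its alpha-6 beta-1 integrin receptor are known for carrying attachment and survival.

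Values are normalised reads, which by their pattern are reads of a gene divided by a factor of the library. They are compared for 1 gene across wells and not between genes, since transcript lengths were not used here. The wells carried the pluripotency genes POU5F1 (18294 to 62019 normalised reads), SOX2 (13371 to 22072), NANOG and LIN28A, whereas DPPA4 stayed at 0 to 7.35. A gene was tested where it reached 10 normalised reads in at least 5 of the 10 libraries, which 36 of the 42 members did. The test was limma on log2(normalised reads + 1) with the line as a block, and genes with a Benjamini-Hochberg adjusted p under 0.05 over all 18506 tested genes were called. On this scale the changes of weakly expressed genes come out too small. Where a gene is given well by well, its values follow the order of lines 1, 2, 4, 8 and 11.

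Line 4 stood apart from the other lines before any comparison of media. Its wells had the highest shares of mouse reads, 42.3% and 41.4% against 21.2% to 33.3%, and the highest summed level of 19 fibroblast and mesenchyme markers, 168773 and 205409 normalised reads against 15935 to 90725. Results are therefore also given without it where they change. In RNA of whole wells, fewer cells of a type and less RNA per cell cannot be told apart.

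After removal of IWR-1, 3 receptor genes rose and the rest of this gene group did not pass the test. They were BCAM (NCBI gene 282862), a laminin alpha-5 receptor, and the integrin chains ITGA8 (511976) and ITGB5 (282564), and all 3 were also called without line 4, at log2 fold changes of 1.03, 0.81 and 0.79. Calls were made for 3 of the 36 tested members (8.33%, against 0.951% of all tested genes), of which 3 rose (background 0.886%) and 0 fell (background 0.0648%). At an unadjusted p under 0.05 there were 10 members, or 27.8% (background 10.1%). The median log2 fold change of the members was 0.09, against 0.00 for all tested genes. Together the 42 members took 0.357% ± 0.041 of the bovine reads with IWR-1 and 0.393% ± 0.0741 without it (SD, n = 5), a share higher without it in 4 of 5 lines. A positive log2 fold change was found in 28 members, or 77.8%, against 48.4% of all tested genes. On the related lists described below it was found in 23 of 27 further basement membrane genes and 21 of 24 integrin ligands. The counts were 27 of 32 activation and linkage genes, 17 of 27 dystroglycan complex genes and 7 of 11 tetraspanins and hemidesmosome partners. Line by line, 8 members were higher without IWR-1 in all 5 pairs (background 6.2%), namely ITGA4, ITGA7, ITGA8, ITGA11, ITGB1, ITGB5, NID2 and BCAM, and 1, ITGB4, was lower in all 5 (background 4.92%). The wells of the 2 media formed separate ranges for 0 of the 36 members (background 0.0702% for higher and 0.0432% for lower).

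**Figure D1:**
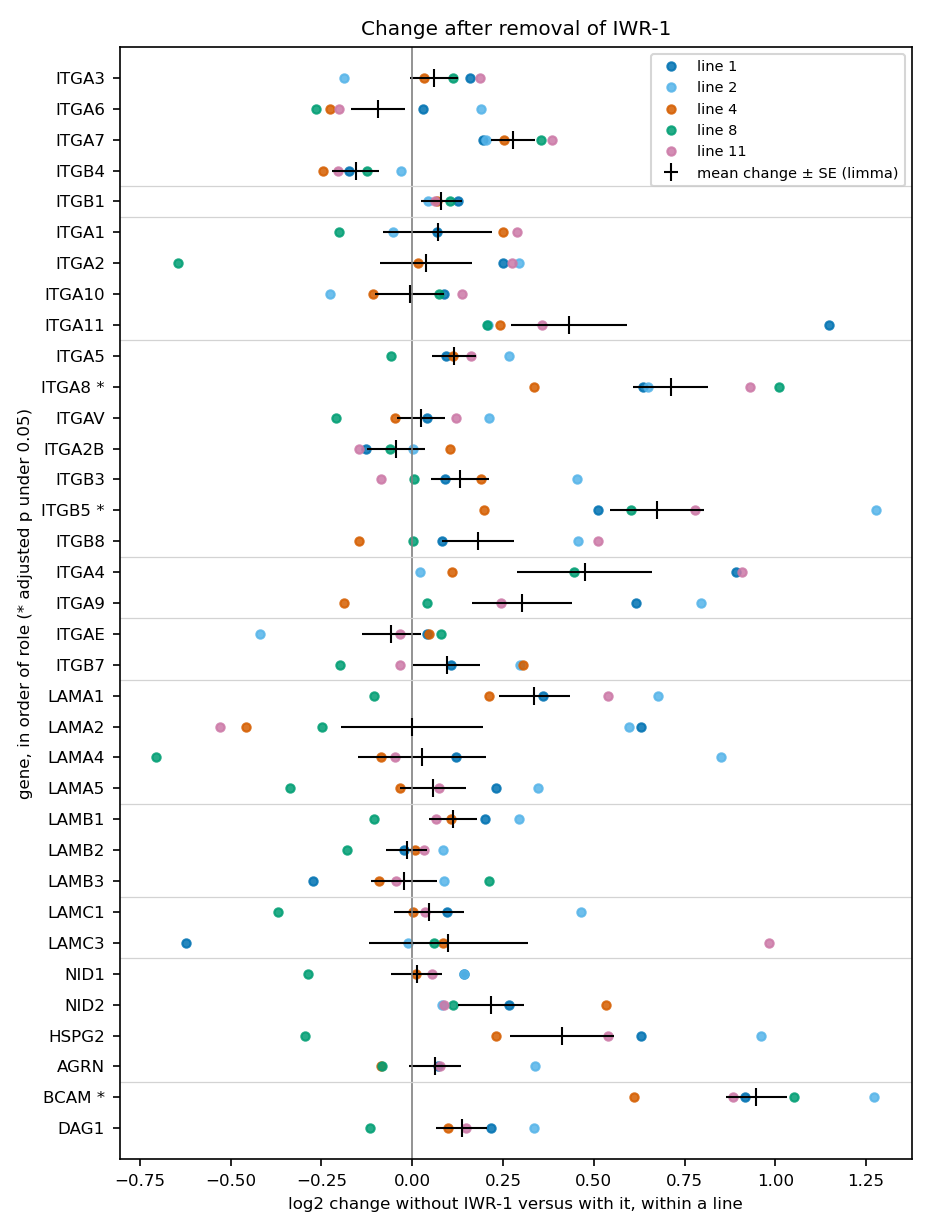
Log2 change without IWR-1 against with it on the x axis for 35 tested genes on the y axis, grouped by role; coloured points are the 5 lines, black ticks and bars the limma mean and SE. The points of BCAM, ITGA8 and ITGB5 all lie above 0, while those of most laminin genes lie on both sides of 0.

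The comparison was made within lines, since both wells of a number hold the same line. Without the line block limma called 0 of the 36 members, and 0 had an unadjusted p under 0.05. Over all 18506 tested genes that fit also called 0, and 105 had an unadjusted p under 0.05. In each of the 5 lines the mouse share of reads was smaller in the well without IWR-1; its mean was 30.4% ± 7.57 with IWR-1 and 26.8% ± 8.45 without (SD, n = 5; exact two-sided sign-flip test, p = 0.063, the smallest p that 5 pairs allow). With that share as a covariate beside the line, 0 members were called and 3 had an unadjusted p under 0.05. Over all 18506 tested genes this fit called 0 as well, and 456 had an unadjusted p under 0.05. The within-line difference in share was -3.64 ± 2.17 percentage points (SD, n = 5). It had the same sign in every line but varied in size, so the fit can tell it apart from the medium only in part. Each medium had 1 well per line, so the spread between lines also holds differences between wells.

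Among the receptors outside the integrin family, BCAM gave the largest log2 fold change of the 36 tested members. With IWR-1 it stood at 1117, 2485, 1973, 2003 and 5028 normalised reads, and without it at 2109, 5999, 3015, 4154 and 9279. Every line was higher without IWR-1, from a log2 change of 0.61 in line 4 to 1.27 in line 2, although the ranges of the media overlapped. BCAM rose by a log2 fold change of 0.95 ± 0.08 SE (limma adjusted p = 0.00108), from a mean of 2521 ± 1486 to 4911 ± 2841 (SD, n = 5). It was called in each of the 5 fits that left out 1 line, line 4 included, at 0.87 to 1.03, and its value with the mouse share as a covariate was 0.75. DAG1, which encodes both subunits of dystroglycan, was not called (0.14 ± 0.07; adjusted p = 0.586). It stood at 18536, 23875, 16237, 15885 and 23028 with IWR-1 and at 21528, 30100.3, 17377, 14660.1 and 25538 without it, higher in 4 of 5 lines and lower in line 8.

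The integrin chains that bind ligands with an RGD motif held the other 2 calls. ITGA8, a chain that pairs with ITGB1 to bind nephronectin and fibronectin, stood at 174, 411, 566, 342 and 1001 normalised reads with IWR-1. Without it the values were 271, 644, 716, 689 and 1909.8. All 5 lines were higher without the inhibitor, with the smallest log2 change in line 4 (0.34) and the largest in line 8 (1.01). ITGA8 rose by 0.71 ± 0.10 SE on the log2 scale (limma adjusted p = 0.0134), from 499 ± 314 to 846 ± 621 (SD, n = 5). The call ended without line 1 (adjusted p = 0.0715) or line 11 (adjusted p = 0.104), and the log2 fold change was 0.34 with the mouse share as a covariate. ITGB5, the beta chain of the vitronectin receptor alpha-V beta-5, stood at 101.2, 270.03, 2659.5, 410.2 and 803 with IWR-1 and at 145, 656, 3053, 624 and 1379.6 without it. Again every line was higher, from 0.20 in line 4 to 1.28 in line 2, but line 4 exceeded all other wells in both media. ITGB5 rose by 0.67 ± 0.13 SE (limma adjusted p = 0.0431), from 849 ± 1045 to 1171 ± 1140.4 (SD, n = 5). Its call ended without line 1 (adjusted p = 0.131), line 8 (0.0831) or line 11 (0.220) and with no filter on low values (0.117), and its log2 fold change was 0.26 with the mouse share as a covariate. Nephronectin (NPNT) was at 0.13 ± 0.27 on the log2 scale, and vitronectin (VTN) stayed at 0 to 5.56 normalised reads in all wells.

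The partners of these chains did not pass the test. ITGAV, the alpha chain of ITGB5 and of ITGB3, ITGB6 and ITGB8, stood at 7687, 8628, 9357, 9169 and 10799 with IWR-1 and at 7913, 9997, 9056, 7930.4 and 11734 without it. Its log2 fold change was 0.02 ± 0.07 (adjusted p = 0.965), and lines 4 and 8 were lower without IWR-1 while the other lines were higher. ITGB1, the beta chain shared by most matrix-binding integrins, stood at 30381, 25688, 31548, 27664 and 25652 with IWR-1 and at 33129, 26479, 33106, 29715 and 26776 without it. It was higher in 5 of 5 lines but by little (0.08 ± 0.06; adjusted p = 0.752), and it varied less between lines than any other tested member, by 0.31 on the log2 scale between the highest and lowest line mean. ITGA5, the alpha chain of the fibronectin receptor, stood at 2067, 2459, 2306, 2553 and 4390.3 with IWR-1 and at 2204, 2955, 2494, 2451 and 4913 without it. Line 11 was highest in both media, and the change was not called (0.11 ± 0.06; adjusted p = 0.606). The other tested chains of this role were ITGB3 (0.13 ± 0.08), ITGB8 (0.18 ± 0.10), an activator of latent TGF-beta, and ITGA2B (-0.05 ± 0.08). ITGB6, the epithelial partner of alpha-V, had 2 reads in 1 well and 1 read in another.

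**Figure D2:**
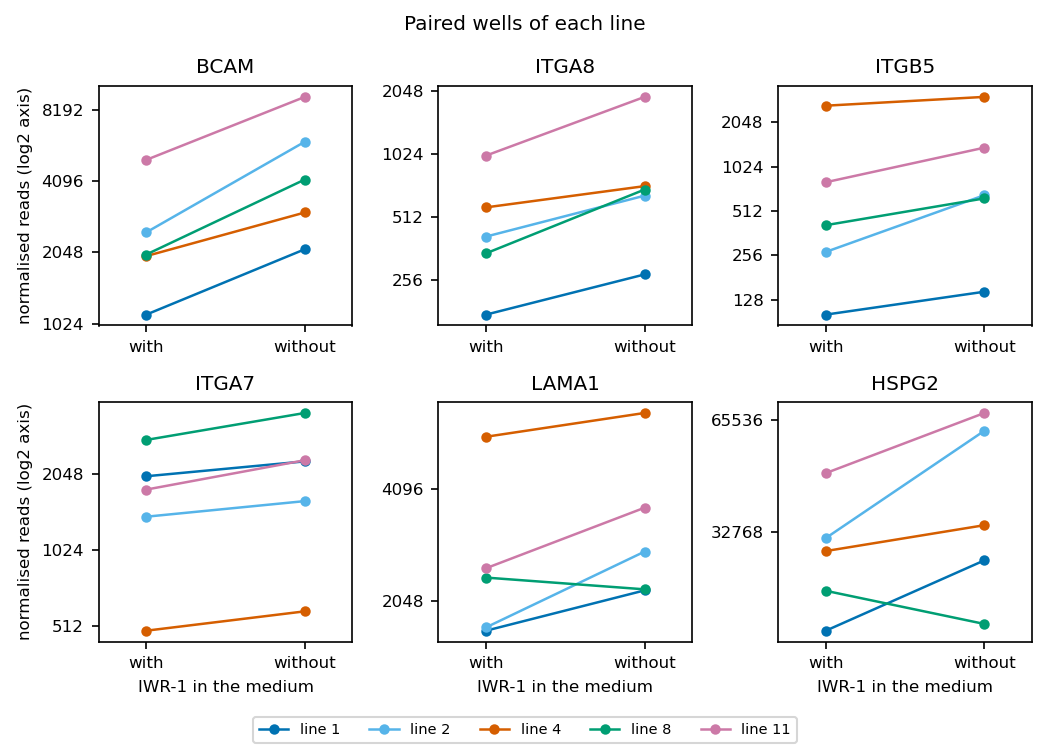
Normalised reads (y axis, log2 scale) with and without IWR-1 (x axis) for 6 genes; each line joins the 2 wells of a stem cell line. BCAM, ITGA8, ITGB5 and ITGA7 go up in every line, whereas LAMA1 and HSPG2 go down in line 8.

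Of the 4 tested integrin chains dedicated to laminin 0 were called. ITGA7, the alpha chain of a laminin receptor best known from muscle, stood at 2006, 1389, 493, 2792 and 1778 normalised reads with IWR-1 and at 2298, 1601, 587, 3568 and 2321 without it. It was higher without IWR-1 in every line, by 0.20 to 0.38, and it just missed the threshold (0.28 ± 0.06 SE; limma adjusted p = 0.0678). DESeq2 on the recovered reads called it (adjusted p = 0.0223). ITGB4, the beta chain of the hemidesmosome that pairs with ITGA6, stood at 1807, 1418, 1040.02, 1300.1 and 742 with IWR-1 and at 1600.1, 1388, 877, 1192 and 644 without it. It was the 1 member lower in all 5 lines, by 0.03 to 0.25, and was not called (-0.16 ± 0.06; adjusted p = 0.433). ITGA6, the laminin receptor chain common to many stem cells, stood at 12259.6, 15333, 5935, 12036 and 10172 with IWR-1 and at 12517, 17482, 5076, 10021 and 8839 without it. Lines 1 and 2 were higher and lines 4, 8 and 11 lower without IWR-1 (-0.09 ± 0.07; adjusted p = 0.793), and line 4 was below all other wells in both media. ITGA3 was at 0.06 ± 0.07.

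The collagen-binding chains ITGA1, ITGA2, ITGA10 and ITGA11 gave 0 calls. ITGA11, a fibrillar collagen receptor of mesenchymal cells, stood at 61.8, 75.7, 704, 104 and 89.4 with IWR-1 and at 138, 87.6, 833, 119.7 and 115 without it. The line 4 wells were far above all others, and line 1 had the largest change (1.15) among changes of 0.21 to 0.36 elsewhere (0.43 ± 0.16; adjusted p = 0.363). ITGA1 (0.07 ± 0.15), ITGA2 (0.04 ± 0.13) and ITGA10 (-0.01 ± 0.10) lay close to 0. ITGA4, whose receptor binds VCAM1 and fibronectin, stood at 41.5, 45.2, 181, 70.4 and 45.7 with IWR-1 and at 77.8, 45.9, 195, 96.1 and 86.6 without it. It was higher in 5 of 5 lines, by as little as 0.02 in line 2, and was not called (0.47 ± 0.19; adjusted p = 0.404), nor was the related ITGA9 (0.30 ± 0.14).

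Of the 6 leukocyte integrin chains, ITGAL, ITGAM, ITGAD and ITGB2 were barely detected. ITGAL and ITGAM reached at most 18.5 and 11.9 normalised reads, ITGAD 2.91 and their shared beta chain ITGB2 10.9, and 0 of these 4 genes were tested. Of 13 leukocyte markers PTPRC, SPI1 and CD14 stayed at or under 12.5 normalised reads in all wells and TYROBP was at 0 in all 10. Others on that list were detected, among them CORO1A at 1187 to 1742, VAV1 at 3.46 to 562, CD79A at 41.6 to 316 and CD68 at 117 to 269, and the summed level of the list was 1668 to 2989.9 in the 10 wells. ITGAE and ITGB7, which together form a receptor for E-cadherin, were present at 919 to 1764 and 195 to 1010.4 normalised reads and were not called (-0.06 ± 0.08 and 0.09 ± 0.09). In the RefSeq table of ARS-UCD2.0 the span of ITGAE overlaps that of HASPIN (1228 to 1776 normalised reads), and that of ITGA1 overlaps PELO. In all, 12 of the 42 members overlapped another gene that reached 10 normalised reads, and the sources used here do not state whether reads were assigned by strand.

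Of the 11 laminin chains 10 were tested and 0 were called. LAMA5 and LAMA1 encode the alpha chains of the laminins typical of the early embryo and of pluripotent cells. LAMA1 stood at 1708, 1743, 5664, 2372 and 2513 normalised reads with IWR-1 and at 2191, 2785, 6561, 2205 and 3653 without it. It was higher without IWR-1 in lines 1, 2, 4 and 11 and lower in line 8, and was not called (0.34 ± 0.10 SE; limma adjusted p = 0.194). It was called without line 8 (0.45; adjusted p = 0.0405) and by DESeq2 on the recovered reads (adjusted p = 0.049). LAMA5 stood at 26942, 32949, 15298, 23835 and 32027 with IWR-1 and at 31596, 41925, 14937, 18883 and 33704 without it. Line 4 lay below all other wells, and the change went both ways, from -0.34 in line 8 to 0.35 in line 2 (0.06 ± 0.09; adjusted p = 0.93). LAMA2 and LAMA4, the alpha chains of muscle and of vessels and mesenchyme, were at 0.00 ± 0.20 and 0.03 ± 0.18.

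The main beta and gamma chains were not called either. LAMB1, the beta chain that joins LAMA1 or LAMA5, stood at 9953, 11356, 12667, 11138 and 15689.6 with IWR-1 and at 11445, 13921, 13640.1, 10345 and 16425 without it. LAMC1, the gamma chain of most laminins, stood at 11791, 14583, 16201, 10824 and 13728 with IWR-1 and at 12607, 20113, 16223, 8379 and 14073 without it. Both were higher without IWR-1 in 4 of 5 lines and lower in line 8, with log2 fold changes near 0 (0.11 ± 0.07, adjusted p = 0.659, and 0.05 ± 0.10, adjusted p = 0.953). LAMB2 was at -0.02 ± 0.06 and LAMB3 at -0.02 ± 0.09. LAMA3, an alpha chain of epithelial laminins, was below the filter, with 0 to 4 reads in lines 1, 2 and 8, 14 and 17 in line 11 and 35 and 50 in line 4. LAMB3 stood at 300.5 to 629 normalised reads in the 10 wells. The hemidesmosomal collagen COL17A1 was at 0 to 12.7 normalised reads.

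The nidogens and proteoglycans that tie the network together were all at positive log2 fold changes and gave 0 calls in 4. HSPG2, which encodes perlecan, stood at 17785, 31587, 29142, 22776 and 47249.5 normalised reads with IWR-1 and at 27511, 61452, 34211, 18543 and 68606 without it. It was higher without IWR-1 by 0.23 to 0.96 in lines 1, 2, 4 and 11 and lower by 0.30 in line 8 (0.41 ± 0.14 SE; limma adjusted p = 0.31). Without line 8 it was called, at 0.59 (adjusted p = 0.0395). NID2 was higher in 5 of 5 lines (0.22 ± 0.09; adjusted p = 0.46), and NID1 (0.01 ± 0.07) and AGRN (0.06 ± 0.07) lay close to 0.

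Most members were higher without IWR-1 in lines 1, 2, 4 and 11, but not in line 8. In lines 1, 2, 4, 8 and 11, the members higher without IWR-1 were 31, 30, 25, 17 and 26 of 36. The shares of all tested genes were 49.0%, 53.2%, 48.9%, 51.0% and 48.6%. In line 8, 19 members were lower (52.8%, against 49.0% of all tested genes). The median changes of the members were 0.13, 0.24, 0.08, -0.06 and 0.10 in the same order. Over all tested genes the medians were -0.004, 0.028, -0.005, 0.008 and -0.006. Line 8 gave the lowest change of the 5 lines for 16 members (44.4%, background 25.9%) and line 2 the highest for 19 (52.8%, background 31.3%). For 13 members the lowest change of the 5 lines was in line 8 and the highest in line 2 at once, or 36.1%, against 13.9% of all tested genes. These were ITGA2, ITGA5, ITGA6, ITGAV, LAMA1, LAMA4, LAMA5, LAMB1, LAMB2, LAMC1, NID1, HSPG2 and DAG1, and they include the widely expressed laminin chains, perlecan and dystroglycan. BCAM, ITGA8 and ITGB5 were not among them, and line 8 gave the largest change of ITGA8. This tally was chosen after the values were seen, it rests on 1 pair of wells per line, and it was given no test. Genes outside the member list showed the same pattern, among them FLNA, TLN1, PXDN and FRAS1, and the other lists were not tallied for it. FLNA went from 139062 to 218095 normalised reads in line 2 and from 97808 to 83744 in line 8. Over all tested genes, deviations from the group means correlated least between the wells of lines 2 (0.617) and 8 (0.646).

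Levels of these genes differed between the lines. A limma F test of the line terms, which sets line differences against the spread within lines, called 36 of 36 tested members (adjusted p under 0.05), against 66.5% of all tested genes. The 2 wells of a line were its only replicates, so a lasting trait of a line and a difference between cultures cannot be told apart. The part of the mouse share in these differences was not tested. The distance between the highest and the lowest line mean had a median of 1.52 on the log2 scale over the members and 0.77 over all tested genes. It was at least 2-fold for 25 members (69.4%, background 38.0%) and at least 4-fold for 15 (41.7%, background 13.7%). Without line 4 the F test called 27 of 36 members (75.0%), against 48.8% of 18494 tested genes. Among the 5 lines, line 4 was highest in both media for 13 members (background 19.1%) and lowest for 8 (background 18.4%).

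**Figure D3:**
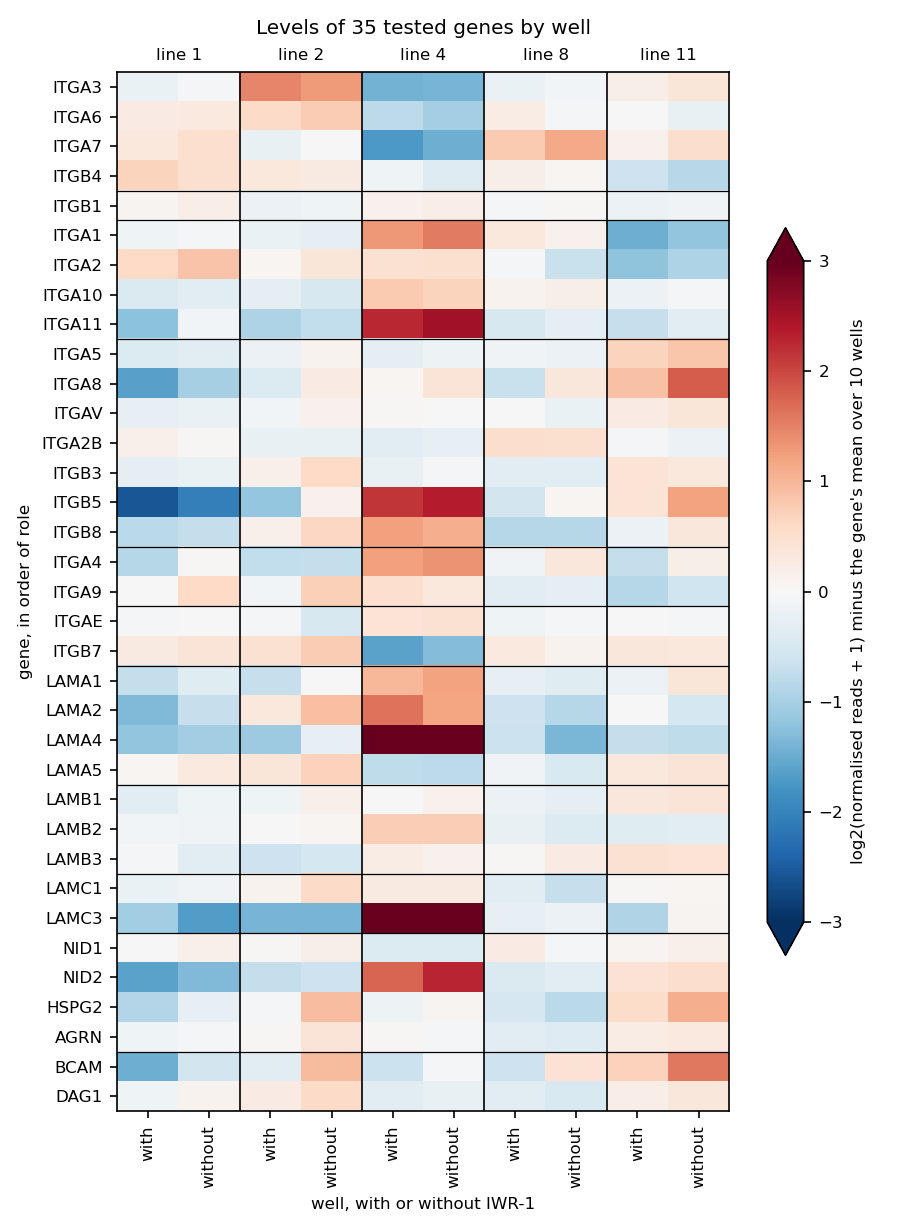
Heat map of 35 tested genes (rows, in order of role) in the 10 wells (columns, paired by line); colour is log2(normalised reads + 1) minus the gene's mean over the wells. The 2 wells of a line resemble each other, and the line 4 columns show ITGA11, ITGB5, LAMA4, LAMC3 and NID2 high and ITGA3, ITGA7 and ITGB7 low.

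Line 4 differed from the other lines in the levels of many receptor and laminin genes in both media. Both of its wells lay above all 8 other wells for 13 tested members (36.1%, background 16.5%) and below all of them for 8 (22.2%, background 15.6%). Among laminin chains LAMA4 stood at 3725 and 3952 normalised reads against 128 to 277, LAMC3 at 695 and 738 against 20.7 to 72, LAMA2 at 320 and 439 against 55.7 to 266, and LAMA1 and LAMB2 were also above the other lines. LAMA5 and the nidogen NID1 were below them, whereas NID2 was above them at 1656 and 2399.5 against 162 to 706. The ratio of LAMA5 to LAMA1 values was 2.28 and 2.7 in line 4 and 8.56 to 18.9 in the other lines. Such a ratio depends on the lengths of both genes, was chosen after the values were seen and is compared only across wells.

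Among receptors the same line had the collagen-binding chains ITGA1, ITGA10 and ITGA11 above the other lines, and so were ITGB5, ITGB8, ITGA4 and ITGAE. The laminin-binding chains ITGA3 (912 and 931 against 2134 to 6776), ITGA6 (5076 and 5935 against 8839 to 17482) and ITGA7 (493 and 587 against 1389 to 3568) were all below them, as were ITGB7 and ITGA2B. Values of ITGB1 and ITGAV in line 4 lay within the range of the other lines, as did those of DAG1, BCAM and HSPG2. The high mouse share of line 4 went with these levels, and so did the fibroblast and mesenchyme markers, of which 16 of 18 tested genes were highest in line 4 in both media, 0 were lowest there and 0 were at 0 in all wells. The sources used here do not say what was done with reads that fit both species, and the part of either measure in the line 4 levels was not tested.

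**Figure D4:**
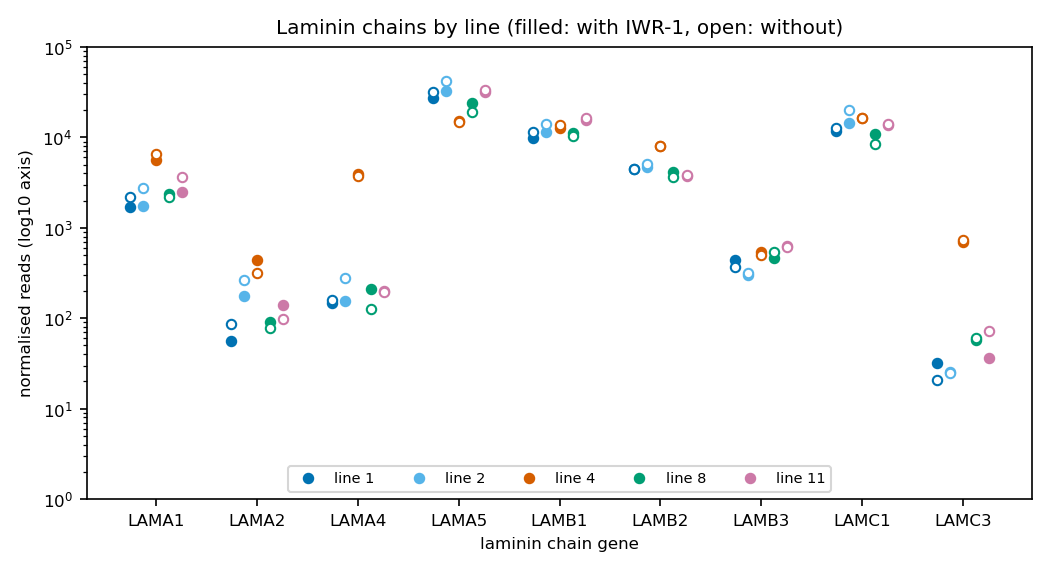
Normalised reads (y axis, log10 scale) of 9 tested laminin chain genes (x axis) by line; filled circles are wells with IWR-1 and open circles wells without it. Line 4 stands above the other lines for LAMA1, LAMA2, LAMA4, LAMB2 and LAMC3 and below them for LAMA5.

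Outside the member list, other parts of the same system were counted on lists of known genes. Of 27 further basement membrane genes 4 rose and 1 fell (background 0.886% and 0.0648%), with a median log2 fold change of 0.10. TINAGL1, a laminin-binding matrix protein, rose from 84.7 ± 47.6 to 184 ± 87.5 normalised reads (SD, n = 5; 1.10 ± 0.19 SE, limma adjusted p = 0.0249). The matrilin MATN2 (0.69 ± 0.11) and the lysyl oxidase LOXL2 (0.42 ± 0.07), which crosslinks type IV collagen, rose as well, and SMOC1 fell by 0.38 ± 0.07. The fifth call, named after its value was seen, was EGFLAM, which encodes the dystroglycan ligand pikachurin (0.66 ± 0.13). The type IV collagen genes COL4A1 (0.15 ± 0.07) and COL4A2 (0.16 ± 0.06) were not called. Leaving out line 1 or line 11 left 0 calls in this list and leaving out line 4 left 2, MATN2 and TINAGL1; EGFLAM was called in 0 of the 5 fits that left out a line and SMOC1 in 1, the fit without line 2.

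Among 24 tested integrin ligands outside the basement membrane 4 rose and 0 fell (background 0.886% and 0.0648%), with a median of 0.16. They were the matricellular genes CCN1 (1.04 ± 0.09) and CCN2 (0.78 ± 0.06), the thrombospondin THBS1 (0.77 ± 0.10) and SPP1, which encodes the RGD ligand osteopontin (1.27 ± 0.20). Line 4 lay above all other wells for CCN2 (6038 and 10063 normalised reads against 451 to 962) and THBS1 (15442 and 23849 against 2125 to 9582). SPP1 stood at 132, 42.0, 632, 229 and 94.2 with IWR-1 and at 398, 74.0, 807, 764 and 342 without it, higher in every line (limma adjusted p = 0.0214). Its call ended without line 1, 8 or 11, that of THBS1 without line 1 or 11, and CCN1 and CCN2 were called in all 5 such fits. For SPP1 the call also ended with no filter on low values (adjusted p = 0.0783), and its log2 fold change was 0.53 with the mouse share as a covariate. Fibronectin (FN1) was at 0.03 ± 0.12.

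Of 32 genes that activate integrins or link them to actin, 1 rose, the scaffold BCAR1 (0.37 ± 0.06; limma adjusted p = 0.0207), and 0 fell; the median was 0.12. PARVA (0.22 ± 0.06) and LIMS2 (0.25 ± 0.07) had the next smallest p-values and were not called. Of 27 tested genes of the dystroglycan complex and its glycosylation, dystrophin (DMD) was the 1 that rose (0.33 ± 0.06; adjusted p = 0.0356) and 0 fell. Among 11 tested tetraspanins and hemidesmosome partners 0 were called, with CD151, a partner of laminin-binding integrins, at 0.30 ± 0.11. For these lists too the background over all tested genes was 0.886% for a rise and 0.0648% for a fall. Calls of BCAR1 and DMD each ended without line 1, 4 or 11. With the mouse share as a covariate or without the line block, 0 genes of these 5 lists were called, and with no filter on low values 3 integrin ligands and 0 genes of the other lists were called. DESeq2 on the recovered reads called 8 integrin ligands and 3 activation and linkage genes, all of which rose. It gave the same counts as limma for the other 3 lists, and it called more of all tested genes than limma did.

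Markers of other cell types were counted in the same fit, in which 0.886% of all tested genes rose and 0.0648% fell. The fibroblast markers TAGLN and ACTA2 rose, 2 of 18 tested, and the summed level of the 19 fibroblast markers was 15935 to 168773 with IWR-1 and 21284 to 205409 without it. The other 16 were not called. A positive log2 fold change was found in 12 of the 18 (background 48.4%), with a median of 0.25. Negative values included COL1A2 (-0.30 ± 0.10), DCN (-0.24 ± 0.13) and COL6A3 (-0.16 ± 0.20). On the trophectoderm list KRT18, KRT8 and TEAD4 rose, 3 of 7 tested, with a summed level of 5320.3 to 32197 with IWR-1 and 10666 to 60680 without it for 12 genes. Keratins made up most of that sum, with KRT8 at 38941 and KRT18 at 17767 in the line 8 well without IWR-1. Of the 7 tested genes 6 had a positive log2 fold change, and TFAP2A was at -0.70 ± 0.48. ELF5 and HAND1 reached at most 5.83 and 5.84 normalised reads, GATA2 12.6 and GATA3 32.1. CDX2 stayed at 0 to 1.19 apart from 86.6 in line 4 without IWR-1. Of 10 tested pluripotency genes NANOG was the 1 that rose, and the angiopoietin receptor gene TEK was the 1 called of 8 endothelial and platelet markers. On the hypoblast and endoderm and the leukocyte lists 0 of 9 and 0 of 8 were called. The pluripotency call was lost without line 1, 2, 4 or 11 and with no filter on low values, and the endothelial call without line 1 or 11 and with no filter. DESeq2 called 6 fibroblast markers that rose, 1 pluripotency gene that rose and 2 that fell, and 1 hypoblast and endoderm marker that rose. It also called more of all tested genes than limma did. With the mouse share as a covariate 0 genes of the marker lists were called. The part of these markers in the rise of BCAM, ITGA8 and ITGB5 was not tested.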

How the data were processed

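Poly(A) RNA was sequenced from 10 wells of bovine stem cells on mouse feeders. Alignment was done apart for each species, with assemblies ARS-UCD1.3 (cattle) and GRCm39 (mouse), per the labels. Tools named in the submitters' processing notes, with no role given, are featureCounts 1.5.0-p3, StringTie 1.3.3b, fastp and HISAT2 2.0.5. The authors deposited a normalised signal per gene and library whose scaling is not stated. Each library's values were whole multiples of 1 step, and dividing by it gave whole reads for 100% of positive values (tolerance 0.01 reads). The 2 columns of the mouse table that match no sample were not used. The mouse table served only for the mouse share of reads.

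Gene names came from a RefSeq table of ARS-UCD2.0, which matched 24660 of 27590 bovine IDs; no coordinates or sequences are given. limma 3.58.1 (R 4.3.3, intensity trend) was fitted to log2(signal + 1) with medium and line as terms. The filter was 10 or more in 5 or more libraries (4 when a line was left out). The line is the block because both wells of a number hold the same line, per the labels; their deviations from the group means correlated at 0.617 to 0.883. edgeR 4.0.16 and DESeq2 1.42.0 on recovered reads, another pseudocount or filter, no block, the mouse share as a covariate and leaving out each line were alternatives. The fit was also run on simulated reads with the same change in every line and no shift in the mouse share. That run does not bear on changes that differ between lines or on the mouse share.

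Members and lists were chosen with earlier results of these data known. Values per well are given for called members, for the 6 uncalled members with the smallest p and for ITGB1, ITGA5, ITGA6, ITGAV, LAMA1, LAMA5, LAMB1, LAMC1, DAG1 and BCAM; of other lists up to 4 genes with the smallest p are named, and others are named as examples. Some genes that enter the fits and counts are not reported here by name or shown in the figures.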

Additional observations from a re-analysis of the deposited data

Results flagged for a closer look

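Of 108 groups of 5 values examined (each tested member's level in either medium and its within-line changes, on the log2 scale), 10 had a highest or lowest value whose gap to the next, divided by the range, exceeded 0.71. Chance flags about 5% of such groups where they are independent and normally distributed. Here both media and all genes share the same 5 lines, so the count of 10 cannot be set against that share. With IWR-1, line 4 was set apart for ITGA11 (704 normalised reads against 61.8 to 104), ITGAE (1706 against 1174 to 1267), ITGB7 (195 against 728 to 823), LAMA4 (3952 against 146 to 209) and LAMC3 (695 against 25.2 to 57.4). Without IWR-1 it was set apart for ITGA11 (833 against 87.6 to 138) and LAMA4 (3725 against 128 to 277). Line 11 stood apart for ITGA5 with IWR-1 (4390.3 against 2067 to 2553). Among within-line changes, ITGA11 in line 1 (1.15 against 0.21 to 0.36) and ITGAE in line 2 (-0.42 against -0.03 to 0.08) stood apart.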

How the results depend on the processing

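The count of 3 called members was the same under both other pseudocounts, the stricter filter and edgeR. It was 2 with no filter, 5 with DESeq2 (ITGA7 and LAMA1 added), 0 with no replicate block and 0 with the mouse share as a covariate; with 1 line left out it was 1 to 4, and 1 without line 1 or line 11. Of all genes 176 were called, against 0 with no replicate block (105 at an unadjusted p under 0.05), 53 with no filter, 420 with DESeq2, 0 with the mouse share (456 at an unadjusted p under 0.05) and 31 to 185 with 1 line left out. The count of members that differ between lines lay within 1.5 times of 36 in every alternative run for it. BCAM, ITGA8 and ITGB5 kept a positive sign under all alternatives. Signs that turned were all of uncalled genes. With the mouse share as a covariate the log2 fold change was -0.0065 for ITGA2, -0.058 for ITGAV, 0.066 for ITGA2B, -0.22 for ITGB8, 0.033 for ITGAE, 0.20 for LAMA2, -0.59 for LAMC3 and -0.034 for AGRN. With 1 line left out it ranged from -0.026 to 0.21 for ITGA2, -0.043 to 0.048 for ITGA10, -0.024 to 0.082 for ITGAV, -0.091 to 0.034 for ITGAE, -0.16 to 0.13 for LAMA2, -0.18 to 0.21 for LAMA4, -0.017 to 0.15 for LAMA5, -0.040 to 0.026 for LAMB2, -0.081 to 0.040 for LAMB3, -0.059 to 0.15 for LAMC1, -0.12 to 0.28 for LAMC3, -0.020 to 0.087 for NID1 and -0.0055 to 0.10 for AGRN. The cause of these shifts was not tested. The 6 untested members had at most 50 reads in a well; low depth and absent expression were not told apart for them.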
